A study of Malus domestica with 18 samples.

Results

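DVH24_035284 and DVH24_035288 are 2 of the 42841 genes in a deposited count table from apple (Malus domestica), and both carry the Swiss-Prot protein name Thaumatin-like protein 1a. The pair was taken by these identifiers after its levels across the 6 groups of medium and time had been seen, so its levels and differences are given as a description without a test. The name is shared by 5 genes of the table, and the other 3 are described further on. The name rests on the annotation in the deposited table, which gives an apple entry for both genes, and it was not checked against a sequence here.

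Thaumatin-like proteins are small secreted plant proteins named for their resemblance to the sweet protein thaumatin, and they form family 5 of the pathogenesis-related proteins. Many bind beta-1,3-glucans or damage fungal membranes, and plants make them during infection, osmotic stress, fruit ripening and ageing of tissue. Thaumatin-like protein 1a of apple is known as the fruit allergen Mal d 2.

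The study asked how shoot explants respond to culture on media with different cytokinins, the hormones that drive cell division and bud outgrowth. Explants 20 mm long of the cultivar Húsvéti rozmaring, labelled as axillary shoot, came from shoots grown for their last passage without cytokinin. They were put on medium without cytokinin (control), with 4.5 µM thidiazuron (TDZ, a synthetic phenylurea with cytokinin activity) or with 4.5 µM 6-benzylaminopurine riboside (BAR, the riboside of an aminopurine cytokinin). All media, the control included, held the auxin indole butyric acid at 0.49 µM and gibberellic acid at 0.58 µM. Poly(A) RNA was sequenced after 48 hours and after 4 weeks, with 3 libraries for each medium and time, 18 in all, and the labels call the 3 biological replicates. The 48 hour and 4 week groups thus differ in the age of the culture on each medium, and a whole explant mixes cell types, so fewer cells of a type and less RNA per cell cannot be told apart.

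The libraries held between 12546489 and 21279097 counted fragments. Transcripts of 34 genes for chlorophyll a-b binding proteins and the small subunit of Rubisco, the markers of green tissue, summed to between 4877 and 51001 CPM (counts per 1000000 counted, with totals scaled by edgeR's TMM factors) in every library. They were lower at 4 weeks than at 48 hours on every medium. On control medium they summed to 10050.5 to 25859 against 38733 to 47797 CPM. On TDZ the sums were 4877 to 8151 against 30619.7 to 51001 CPM, and on BAR 11212 to 16934 against 29024 to 50948 CPM. Of 31 tested genes 23, 28 and 21 were lower on control, TDZ and BAR, beside 21.0%, 9.05% and 11.2% of all genes. Their median log2 differences were -1.75, -2.71 and -1.91, against -0.04, 0.05 and 0.03 for all genes. The part of this in the results was not tested. One library stood apart from its label. TDZ 4 week replicate 3 had a summed level of 12 type-A response regulators, genes that cytokinin switches on, of 15.7 CPM, against 476 and 403 CPM in the other TDZ 4 week libraries and 26.8, 12.4 and 13.2 CPM in the control 4 week libraries. Cytokinin dehydrogenase 3 (DVH24_029452, an enzyme that breaks down cytokinin) stood at 0.0644 CPM in that library and averaged 197 CPM in the other TDZ 4 week libraries. Its part in the results below was not tested, and values that rest on it are followed by those without it. That library and 3 others have library names that end in b, and the labels do not say what this means.

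Both genes were abundant in the same 4 libraries, the 3 control 4 week libraries and TDZ 4 week replicate 3. DVH24_035284 stood at 3536, 14639.8 and 15331 CPM in control 4 week replicates 1, 2 and 3, a mean of 11169 ± 6619 (SD, n = 3). DVH24_035288 stood at 2828, 10733 and 12490.3 CPM in the same libraries, a mean of 8684 ± 5147 (SD, n = 3). Replicate 1 was the lowest of the 3 for both genes, and its green tissue markers summed to 25859 CPM against 10050.5 and 10475 CPM in replicates 2 and 3. Per length, in the deposited FPKM values (fragments scaled by gene length and library size), DVH24_035284 held rank 10, 3 and 2 among all genes in those libraries and DVH24_035288 held rank 12, 5 and 4. Together the 2 genes took 0.548%, 2.18% and 2.39% of all counted fragments there.

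**Figure D1:**
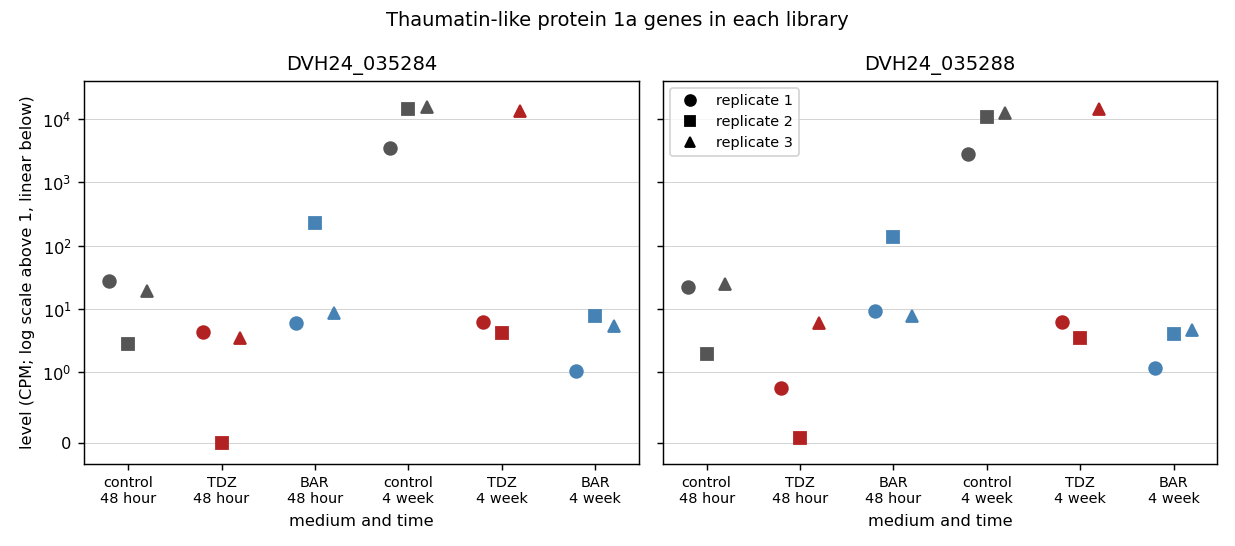
CPM (log axis) of DVH24_035284 and DVH24_035288 in each of the 18 libraries, grouped by medium and time; symbols mark the replicates and the axis is linear below 1 CPM. The 3 control 4 week libraries and TDZ 4 week replicate 3 lie at or above 2828 CPM for both genes, and the other 14 libraries lie at or under 228 CPM.

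On TDZ at 4 weeks the 3 libraries did not form 1 level. For DVH24_035284 replicate 1 had 6.33, replicate 2 had 4.16 and replicate 3 had 13544 CPM, and the mean of 4518 ± 7817 (SD, n = 3) lies near none of them. DVH24_035288 stood at 6.2, 3.53 and 14328 CPM, a mean of 4779 ± 8269 (SD, n = 3). Without replicate 3 the means were 5.25 ± 1.54 and 4.86 ± 1.89 CPM (SD, n = 2). Replicate 3 was thus within the range of the control 4 week libraries for DVH24_035284 and above it for DVH24_035288. Of the TDZ 4 week libraries it was the one with low response regulators.

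On BAR at 4 weeks every library was low. DVH24_035284 stood at 1.05, 7.66 and 5.32 CPM, a mean of 4.68 ± 3.35 (SD, n = 3). DVH24_035288 stood at 1.17, 4.05 and 4.62 CPM, a mean of 3.28 ± 1.85 (SD, n = 3). No BAR library reached the lowest control library of that time, so the groups did not overlap. The type-A response regulators summed to 35.0, 38.9 and 38.6 CPM in BAR 4 week replicates 1, 2 and 3. These sums lay above those of the control 4 week libraries, at 12.4 to 26.8 CPM, and of TDZ 4 week replicate 3, at 15.7 CPM. They lay below the 476 and 403 CPM of TDZ 4 week replicates 1 and 2. Whether the regulators bear on the level of the pair was not tested.

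At 48 hours both genes were low on every medium apart from 1 library. On control medium DVH24_035284 stood at 27.7, 2.77 and 19.5 CPM, a mean of 16.6 ± 12.7 (SD, n = 3), and DVH24_035288 at 22.2, 1.91 and 24.9 CPM, a mean of 16.4 ± 12.6 (SD, n = 3). On TDZ DVH24_035284 stood at 4.3, 0 and 3.53 CPM, a mean of 2.61 ± 2.29 (SD, n = 3), and DVH24_035288 at 0.774, 0.0611 and 6.1 CPM, a mean of 2.31 ± 3.3 (SD, n = 3). The count of 0 in TDZ 48 hour replicate 2 allows a level of up to 0.183 CPM at that library's depth. On BAR DVH24_035284 stood at 6.02, 228 and 8.53 CPM and DVH24_035288 at 9.14, 135 and 7.77 CPM, so that replicate 2 was high for both genes and carries the group means of 81 ± 128 and 50.7 ± 73.2 CPM (SD, n = 3). For both genes the order of the group means was control 4 week, TDZ 4 week, BAR 48 hour, control 48 hour, BAR 4 week and TDZ 48 hour. The libraries of each group overlapped those of its neighbours in that order. Without TDZ 4 week replicate 3 the TDZ 4 week group came after control 48 hour and before BAR 4 week for both genes.

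The differences between groups, fitted with edgeR over all 18 libraries, are descriptions and carry no p-value for these genes. BAR was lower than control at 4 weeks by a log2 difference of -11.22 ± 2.95 (SE) for DVH24_035284, 2381-fold, and of -11.36 ± 2.91 (SE) for DVH24_035288, 2637-fold. Of all genes tested 29.9% passed the test in that comparison, and nothing is read from the pair's place among them, since the pair was chosen on it. On control medium 4 weeks lay above 48 hours by 9.39 ± 2.75 (SE), 671-fold, and by 9.05 ± 2.66 (SE), 531-fold, again without overlap between the groups, where 36.7% of all genes passed. TDZ against control at 4 weeks gave -1.31 ± 1.94 and -0.86 ± 1.89 (SE), with overlapping groups and a background of 26.6%. Without TDZ 4 week replicate 3 the same differences were -11.06 ± 2.16 and -10.8 ± 2.0 (SE), or 2129-fold and 1786-fold, and the groups no longer overlapped.

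The remaining comparisons turned on single libraries. TDZ minus BAR at 4 weeks was 9.91 ± 2.81 for DVH24_035284 and 10.5 ± 2.82 for DVH24_035288 (SE) with all libraries, with overlapping groups and a background of 8.4%, and 0.16 ± 1.37 and 0.56 ± 1.29 (SE) without TDZ 4 week replicate 3. On TDZ 4 weeks minus 48 hours was 10.77 ± 2.91 and 10.98 ± 2.87 (SE), with overlapping groups and a background of 20.1%, and 1.03 ± 1.4 and 1.03 ± 1.31 (SE) without that library. These differences thus depend on 1 library. On BAR 4 weeks minus 48 hours was -4.11 ± 2.19 and -3.94 ± 2.14 (SE) against a background of 21.2%, and -0.63 and -1.36 without BAR 48 hour replicate 2.

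At 48 hours TDZ minus control was -2.68 ± 2.11 and -2.79 ± 2.07 (SE), and BAR minus control was 2.28 ± 2.01 and 1.63 ± 1.93 (SE), all with overlapping groups. Without BAR 48 hour replicate 2 the BAR minus control values turned to -1.19 and -0.95. TDZ minus BAR at 48 hours was -4.97 ± 2.3 and -4.42 ± 2.2 (SE), with no overlap, and -1.49 and -1.84 without BAR 48 hour replicate 2. In these 3 comparisons 0.0% of all genes passed the adjusted threshold with edgeR, while 1439, 693 and 1970 genes had an unadjusted p under 0.05 and DESeq2 called 103, 5 and 151.

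**Figure D2:**
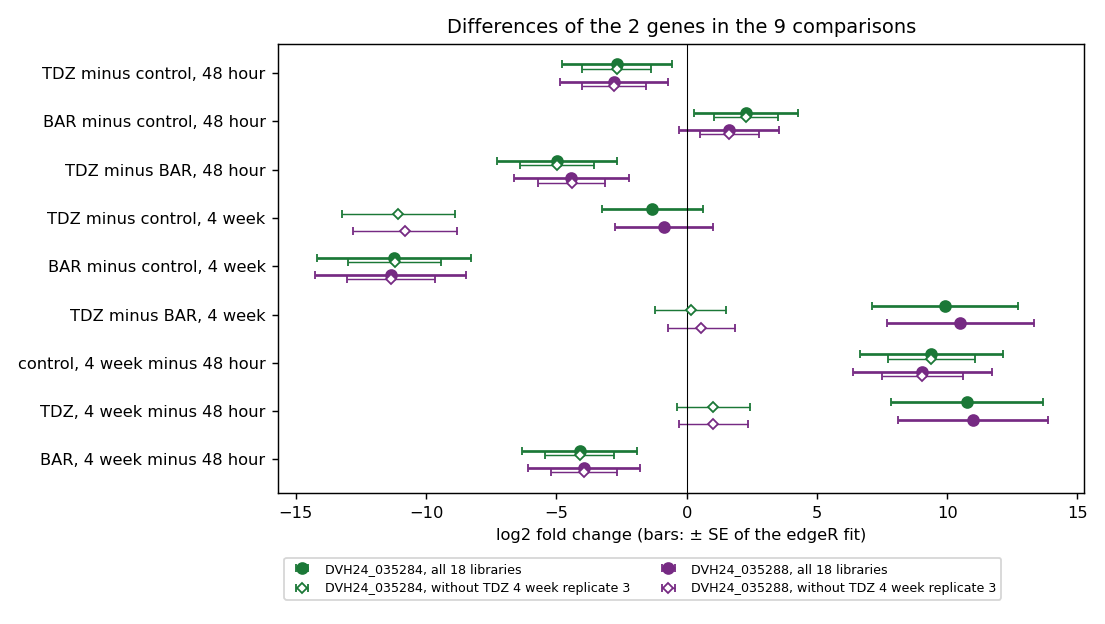
Log2 differences between groups for DVH24_035284 and DVH24_035288 in the 9 comparisons, with bars of ± SE of the edgeR fit, from all 18 libraries (filled) and without TDZ 4 week replicate 3 (open). For DVH24_035284 BAR minus control at 4 weeks stands at -11.22 with all libraries, and TDZ minus control at 4 weeks moves from -1.31 to -11.06 without that library.

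The 2 genes ran together across the libraries. The Pearson correlation of their log2(CPM + 1) values over 18 libraries was 0.994, and 0.993 without TDZ 4 week replicate 3. Each gene was the closest match of the other among 15298 genes with a mean of at least 5 CPM. In the control 4 week libraries DVH24_035284 held 55.6% (95% exact binomial interval 55.3 to 55.8), 57.7% (57.5 to 57.8) and 55.1% (54.9 to 55.3) of the pair's fragments, and in TDZ 4 week replicate 3 it held 48.6% (48.4 to 48.7). The share in TDZ 4 week replicate 3 lay under all 3 control shares by more than these intervals, which cover counting error only. The widest departures came from libraries with few fragments, such as 84.7% (73.0 to 92.8) in TDZ 48 hour replicate 1.

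**Figure D3:**
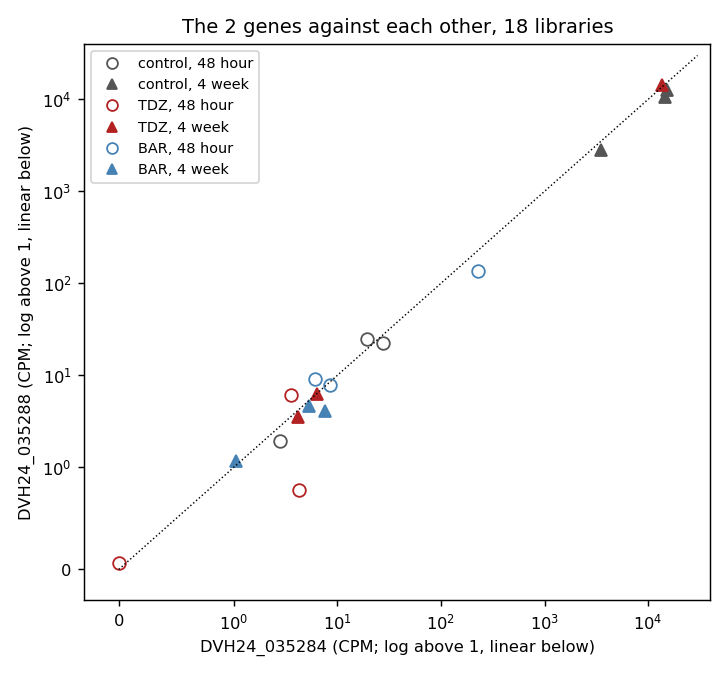
CPM of DVH24_035288 against CPM of DVH24_035284 in the 18 libraries (both axes log above 1 CPM and linear below), coloured by medium, with open circles for 48 hours and triangles for 4 weeks. The dotted line marks equal levels. For DVH24_035284 and DVH24_035288 the lowest point is TDZ 48 hour replicate 2, at 0 and 0.0611 CPM. The highest are control 4 week replicate 3, at 15331 and 12490.3 CPM, and TDZ 4 week replicate 3, at 13544 and 14328 CPM. TDZ 48 hour replicate 1, at 4.3 and 0.774 CPM, lies off the line.

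The genes lie on the same sequence and strand of the assembly used by the authors, whose build is not given in the sources used here. DVH24_035284 spans positions 30615494 to 30616620 and DVH24_035288 spans 30651494 to 30652618, both on the minus strand, with 34873 bases between them. Both gene models have a coding length of 747 bases. The 3 genes between them carry no protein name and were nearly silent, with total counts over all 18 libraries of 0 for DVH24_035285, 0 for DVH24_035286 and 2 for DVH24_035287. The nearest genes outside were as low, with 15 counts for DVH24_035283 and 0 for DVH24_035289. How the counting treated fragments that match several genes is not stated, so whether the 2 genes share fragments is not known and the split between them is uncertain.

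The other 3 genes of the same protein name, DVH24_030959, DVH24_030961 and DVH24_030963, lie within 158 kb on 1 other sequence. DVH24_030959 stood at 275, 62.8 and 75.3 CPM in the control 4 week libraries, a mean of 138 ± 119 (SD, n = 3), and at 4.4 ± 2.93 CPM on BAR at that time. On TDZ at 4 weeks its mean was 216 ± 355 CPM, with 625 CPM in replicate 3 and a mean of 10.8 CPM without it. It was lower on BAR at 4 weeks by -4.96 ± 1.61 (log2, SE; adjusted p = 0.03, edgeR quasi-likelihood test with Benjamini-Hochberg adjustment), a call lost when control 4 week replicate 1 or any BAR 4 week library was left out. On control medium it rose by 5.18 ± 1.63 (SE; edgeR adjusted p = 0.022) from 48 hours to 4 weeks, a call lost without control 4 week replicate 1 or any control 48 hour library. DVH24_030963 rose on TDZ by 2.41 ± 0.55 (SE; edgeR adjusted p = 0.0071) at a mean of 4.74 CPM, with 19.4 CPM in TDZ 4 week replicate 3, and by 1.69 (edgeR adjusted p = 0.032) without that library. DVH24_030961, at a mean of 1.08 CPM over all libraries, passed the threshold in no comparison.

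In all, 38 genes of the table carry a thaumatin or osmotin name or domain, and 27 of the 36 outside the pair had enough fragments to be tested. On control medium from 48 hours to 4 weeks 3 of the 27 rose and 9 fell, where 15.7% of all genes tested rose and 21.0% fell, and their median log2 difference was -0.41 against -0.04 for all genes. On BAR over the same time 1 rose and 9 fell (10.1% and 11.2% of all genes), with a median of -1.2 against 0.03. On TDZ 4 rose and 1 fell (11.0% and 9.05%), with a median of -0.25 against 0.05, and 2 rose and 1 fell, with a median of 0.03, without TDZ 4 week replicate 3. On control medium more of the other family members thus fell than rose, as among all genes, while the pair was high there at 4 weeks.

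Between media at 4 weeks 8 of the 27 were higher on TDZ than on control and 0 lower (16.8% and 9.72% of all genes; 8 and 3 without TDZ 4 week replicate 3), with a median of 1.05 against 0.14, and of 0.85 without that library. On BAR 7 were higher than on control and 4 lower (17.2% and 12.7% of all genes), with a median of 0.13 against 0.14. TDZ exceeded BAR for 3 and was below it for 0 (4.42% and 3.98% of all genes; 10 and 0 without that library), with a median of 1.65 against 0.04, and of 1.1 without it. At 48 hours 0 of the 27 passed with edgeR or DESeq2 in any comparison, and 0, 1 and 1 had an unadjusted p under 0.05 in TDZ against control, BAR against control and TDZ against BAR.

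These counts depend on the fit and on single libraries. The shares of all genes given above come from the fit of all 18 libraries. Shares for the other fits are not given here, so their counts have no background. In a fit of the 4 week libraries alone they were 1 for TDZ against control, 2 for BAR against control and 0 for TDZ against BAR, and without TDZ 4 week replicate 3 that fit gave 10, 13 and 8. BAR against control moved from 11 to 6 without control 4 week replicate 2, 6 without replicate 3, 5 without BAR 4 week replicate 1 and 4 without replicate 3. TDZ against BAR moved from 3 to 7 without control 4 week replicate 1 and to 0, 1 and 0 without BAR 4 week replicates 1, 2 and 3. On TDZ over time the count moved from 5 to 3 without TDZ 48 hour replicate 2 or TDZ 4 week replicate 3, and on BAR over time from 10 to 6 without BAR 48 hour replicate 1 or any BAR 4 week library.

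**Figure D4:**
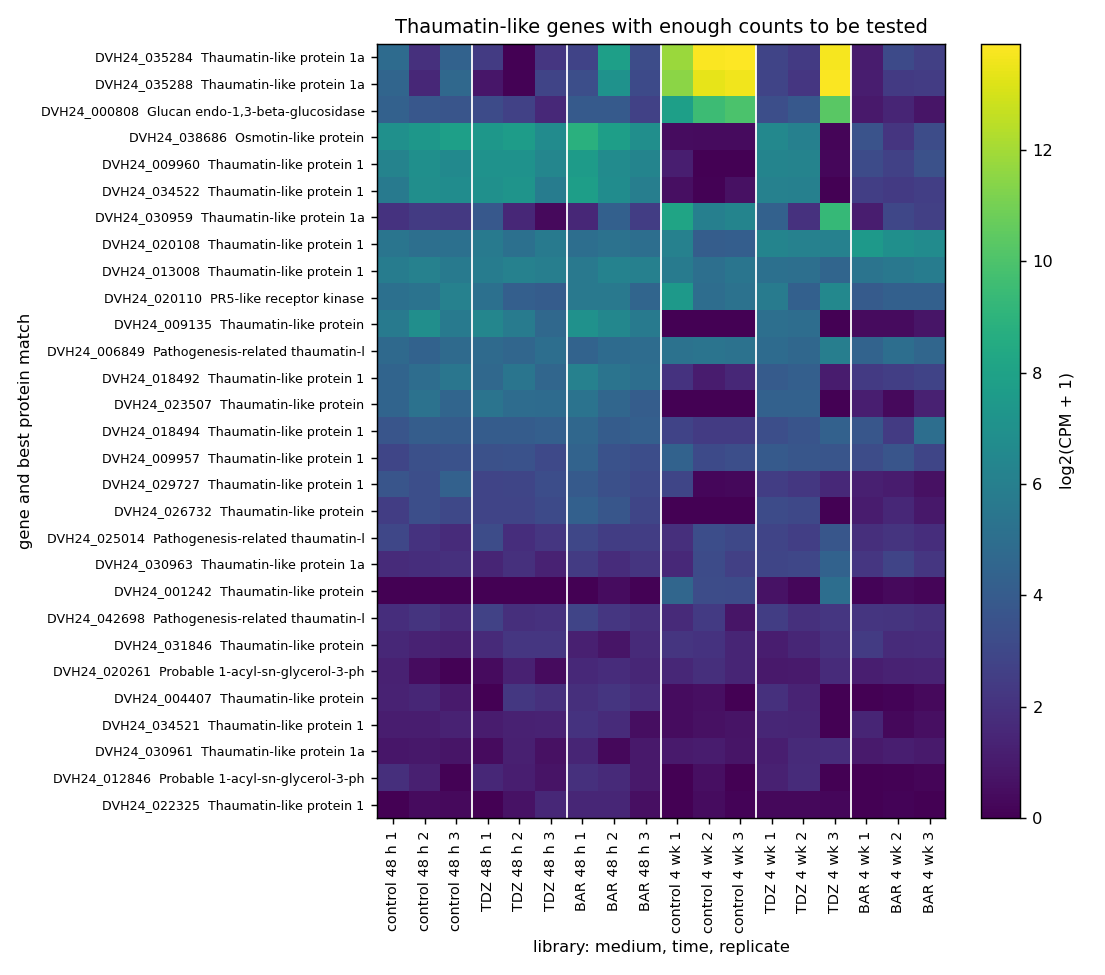
Heat map of log2(CPM + 1) for the 2 genes of the pair and the 27 other tested thaumatin-like genes (rows, with protein names) in the 18 libraries (columns, by medium, time and replicate). Like the pair, DVH24_000808 and DVH24_030959 are bright in the control 4 week libraries and TDZ 4 week replicate 3, where DVH24_038686, DVH24_009960 and DVH24_034522 are dark.

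DVH24_000808 showed the family pattern closest to the pair, with a correlation of up to 0.932 to its genes. Its protein name, glucan endo-1,3-beta-glucosidase, comes from a Prunus avium entry and is a name for enzymes that cut beta-1,3-glucan. Its annotation places it with the thaumatin-like genes, and no enzyme activity is known from these data. It stood at 228, 737 and 998 CPM in the control 4 week libraries, a mean of 654 ± 392 (SD, n = 3), and at 1.14 ± 0.516 CPM on BAR at 4 weeks. It was lower on BAR than on control at 4 weeks by -9.16 ± 1.69 (log2, SE; edgeR adjusted p = 0.0016) and rose on control medium by 5.5 ± 1.42 (SE; edgeR adjusted p = 0.0076), calls that held in all 18 fits with 1 library left out. It was named for its mean CPM and for its small p in these comparisons. Its likeness to the pair comes from the same libraries, so these calls are no separate support for the pair's pattern. On TDZ it stood at 8.96, 13.2 and 1322 CPM in the 4 week libraries, so the group mean of 448 ± 757 becomes 11.1 CPM without replicate 3.

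A second set within the family ran the other way on control medium over time. At 4 weeks these genes were higher on TDZ than on control. The pair's differences there were -1.31 ± 1.94 and -0.86 ± 1.89 (SE) with overlapping groups, and -11.06 and -10.8 without TDZ 4 week replicate 3. DVH24_038686, an osmotin-like protein, averaged 172 ± 54.9 CPM on control medium at 48 hours and 0.334 ± 0.0419 CPM at 4 weeks (SD, n = 3), a difference of -8.96 ± 1.42 (log2, SE; edgeR adjusted p = 0.00065). It was higher on TDZ than on control at 4 weeks by 7.23 ± 1.35 (SE; edgeR adjusted p = 0.003), and by 7.81 without replicate 3, with 77.2 CPM as the mean of TDZ replicates 1 and 2 and 0.129 CPM in replicate 3. Both calls held in all 18 fits with 1 library left out. The pair was high in each library where this gene was nearly silent at 4 weeks. On BAR this gene fell from 265 ± 171 CPM at 48 hours to 7.51 ± 3.68 CPM at 4 weeks. That difference was -5.14 ± 1.13 (log2, SE, edgeR adjusted p = 0.0052), so on BAR over time it did not run against the pair. At 4 weeks it was higher on BAR than on control, by 4.45 ± 1.27 (SE, edgeR adjusted p = 0.017), where the pair was lower. That call was lost without control 4 week replicate 2 or 3.

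DVH24_009960 and DVH24_034522, both named Thaumatin-like protein 1, fell likewise on control medium (edgeR adjusted p = 0.0013 and 0.0011), with levels of 96.9 ± 23.5 and 92.1 ± 36.3 CPM at 48 hours and 0.418 ± 0.725 and 0.369 ± 0.269 CPM at 4 weeks. On BAR over time they changed by -4.0 ± 1.15 and -4.8 ± 1.18 (SE; edgeR adjusted p = 0.021 and 0.0096). The call of DVH24_009960 was lost without BAR 48 hour replicate 1 or any BAR 4 week library. At 4 weeks both were higher on BAR than on control, by 4.07 ± 1.3 and 3.68 ± 1.33 (SE, edgeR adjusted p = 0.028 and 0.047). For DVH24_009960 that call held in 14 of 18 fits with 1 library left out, and for DVH24_034522 in 1. DVH24_009135, DVH24_023507 and DVH24_026732 had no fragment in the 3 control 4 week libraries. Against a floor of 3 counts over that group they were at least 1165-fold, 424-fold and 109.9-fold lower at 4 weeks than at 48 hours, and at least 331-fold, 200.4-fold and 78.9-fold higher on TDZ than on control at 4 weeks. In TDZ 4 week replicate 3 these 3 genes also stood at 0, and the TDZ 4 week means of 20.9, 12.7 and 4.99 CPM were 31.4, 19.0 and 7.49 CPM without it.

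Other named members moved less or stood lower. DVH24_020108 (Thaumatin-like protein 1) was higher on BAR than on control at 4 weeks by 2.0 ± 0.43 (log2, SE; edgeR adjusted p = 0.0037), with 135 ± 38.9 against 33.7 ± 29.9 CPM. DVH24_020110, a PR5-like receptor kinase whose outer part resembles thaumatin, was lower on BAR by -2.27 ± 0.65 (SE; edgeR adjusted p = 0.017), a call lost without control 4 week replicate 1 or BAR 4 week replicate 1 or 3. DVH24_001242 had no fragment in any control 48 hour library and averaged 13.3 ± 8.71 CPM at 4 weeks, at least 202-fold higher against the floor of 3 counts over the group. It stood at 31.7 CPM in TDZ 4 week replicate 3, so that its high libraries were those of the pair.

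Within the family, the pair took 87.4%, 96.3% and 95.7% of the summed CPM in the control 4 week libraries and 92.4% in TDZ 4 week replicate 3. In BAR 48 hour replicate 2 it took 29.4%, and in the other 13 libraries at most 7.93%.

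Related defence and allergen lists were chosen by protein name with all thaumatin-like genes left out. Of 63 tested beta-1,3-glucanases, 10 were higher and 11 lower on BAR than on control at 4 weeks, with a median of 0.08. Of 19 tested chitinases, enzymes that cut chitin of fungal walls, 6 were higher and 7 lower, with a median of 1.02, and of 23 tested PR-10 and major allergen genes 8 were higher and 0 lower, with a median of 1.51. Of 3 tested PR-1 genes 2 were lower, of 2 tested PR-4 genes 1 was lower, of 13 lipid-transfer proteins 1 was higher and 4 lower, and of 6 profilins 0 were higher and 3 lower. The 17.2% of all genes higher and 12.7% lower are the background for these counts, beside a median over all genes of 0.14. Without TDZ 4 week replicate 3, 22 glucanases were higher and 14 lower, 9 chitinases higher and 7 lower, 3 lipid-transfer proteins higher and 4 lower, and 4 profilins lower. The share of all genes passing in that fit is not given here, so 17.2% and 12.7% are no background for its counts.

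In TDZ against control at 4 weeks, where 16.8% of all genes were higher and 9.72% lower, the same lists of 63 glucanases, 19 chitinases, 23 PR-10 genes and 13 lipid-transfer proteins tested gave 21 glucanases higher and 7 lower, 6 chitinases higher and 0 lower, 11 PR-10 genes higher and 0 lower, and 3 lipid-transfer proteins higher and 0 lower. Of the PR-1 and PR-4 genes 0 passed with edgeR or DESeq2 and 0 had an unadjusted p under 0.05, and 1 profilin was lower. Without TDZ 4 week replicate 3, 1 PR-4 gene and 3 profilins were lower. In that fit the counts higher and lower were 28 and 11 for glucanases, 8 and 4 for chitinases, 11 and 0 for PR-10 genes and 5 and 4 for lipid-transfer proteins. The share of all genes passing in that fit is not given here either. On control medium over time, where 15.7% of all genes rose and 21.0% fell, 8 glucanases rose and 28 fell, 5 chitinases rose and 8 fell, and 2 PR-1 genes and 1 PR-4 gene rose. Over that time 2 PR-10 genes rose and 5 fell, 3 lipid-transfer proteins rose and 5 fell, and 0 profilins passed with edgeR, where 2 had an unadjusted p under 0.05 and DESeq2 called 1.

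The PR-1, PR-4 and chitinase sums were highest in the same 4 libraries as the pair. The PR-4 genes summed to 1058, 1599.8 and 1633 CPM in the control 4 week libraries, to 65.7, 27.7 and 3859 CPM in TDZ 4 week replicates 1, 2 and 3, and to at most 15.4 CPM on BAR at 4 weeks. The chitinases summed to 5166, 5455 and 6243 CPM, to 1009, 799 and 16198 CPM and to at most 828 CPM in the same groups. The PR-1 genes summed to 50.2, 40.3 and 31.2 CPM, to 21.1, 28.6 and 168 CPM and to at most 2.42 CPM. In these 3 lists TDZ 4 week replicate 3 was again the high library of its group. The PR-10 list did not share these 4 highest libraries, with 10750, 1917 and 2046 CPM in the control 4 week libraries.

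**Figure D5:**
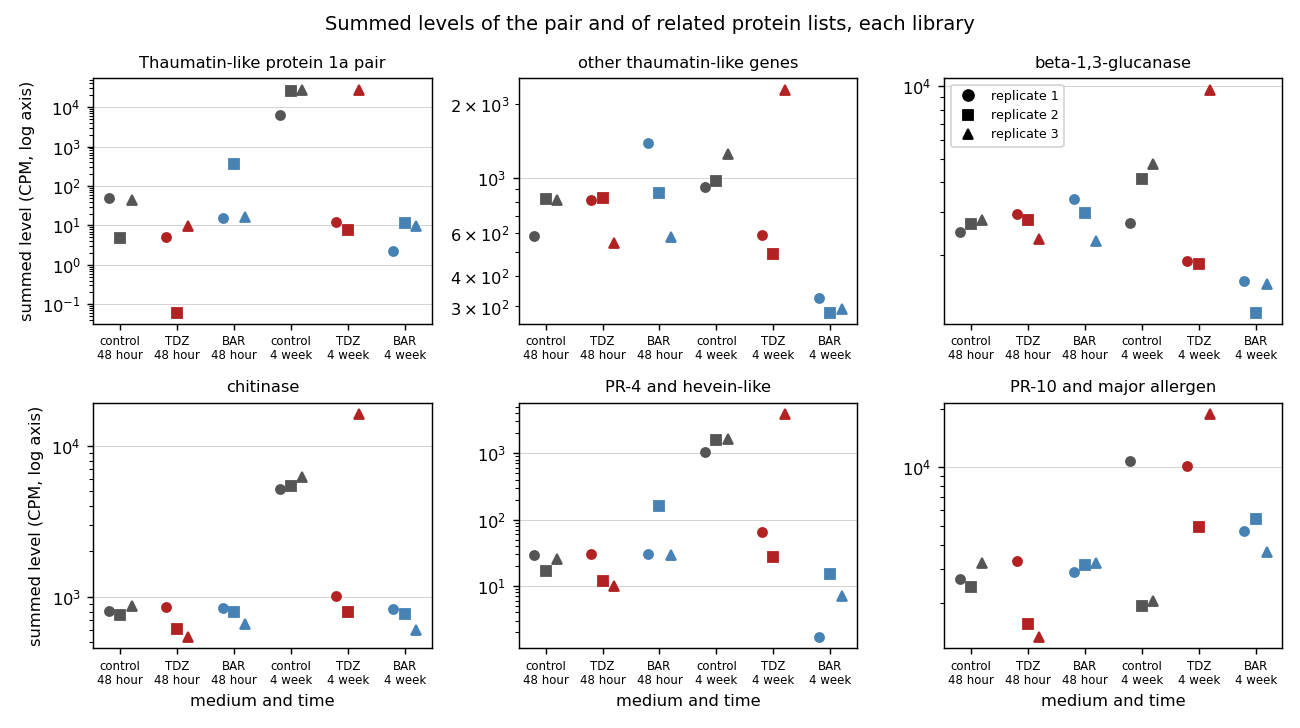
Summed CPM (log axis) of the pair, the other thaumatin-like genes and 4 of the related lists in each library, by group, with a symbol for each replicate and an axis range of its own for each panel. The pair, the PR-4 list and the chitinases are highest in the control 4 week libraries and TDZ 4 week replicate 3, where the chitinases reach 16198 CPM.

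Single genes of these lists passed the test. DVH24_015347 (PR-4B) averaged 1428 ± 323 CPM on control and 7.96 ± 6.8 CPM on BAR at 4 weeks (SD, n = 3), lower by -7.49 ± 1.62 (log2, SE; edgeR adjusted p = 0.0039). DVH24_013179, a beta-1,3-glucanase, averaged 2024 ± 952 and 5.11 ± 3.95 CPM, lower by -8.63 ± 2.13 (SE; edgeR adjusted p = 0.0078). DVH24_022466, an acidic endochitinase, averaged 2556 ± 377 and 47.1 ± 12.9 CPM, lower by -5.76 ± 1.31 (SE; edgeR adjusted p = 0.005). All 3 calls held in each of the 18 fits with 1 library left out. These genes were named for their mean CPM over all libraries, which the high control 4 week libraries raised. The other glucanase named in this way, DVH24_028120, was not lower on BAR, at 1.15 ± 0.71 (SE; edgeR adjusted p = 0.23). On control medium over time it changed by -2.91 ± 0.75 (SE; edgeR adjusted p = 0.0076). DVH24_041339 (Mal d 1, the main apple allergen of the PR-10 group) rose on TDZ over time by 3.27 ± 0.66 (SE, edgeR adjusted p = 0.0036). Its level was 395 ± 197 CPM at 48 hours and 3817 ± 1880.4 CPM at 4 weeks. Without TDZ 4 week replicate 3 the rise was 2.86 (edgeR adjusted p = 0.0069). The other Mal d 1 gene named by mean CPM, DVH24_025444, changed by 1.77 ± 0.61 (SE, edgeR adjusted p = 0.052) and did not pass.

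Among tested genes with a protein name and a mean of at least 5 CPM, those most like DVH24_035284 over the 18 libraries were DVH24_011729 (arogenate dehydratase 1, which makes phenylalanine; r = 0.968), DVH24_026560 (a probable serine protease; r = 0.968), DVH24_017577 (UDP-glycosyltransferase 74F2; r = 0.965), DVH24_013179 (r = 0.963) and DVH24_022470 (acidic endochitinase; r = 0.961). For DVH24_035288 they were DVH24_026560 (r = 0.972), DVH24_002949 (a Kunitz trypsin inhibitor; r = 0.97), DVH24_021062 (ubiquitin C-terminal hydrolase 12; r = 0.965), DVH24_037112 (an amino acid transporter; r = 0.964) and DVH24_011729 (r = 0.963). The lists share 2 genes, DVH24_026560 and DVH24_011729. The lowest value for both genes was that of DVH24_024974, named growth-regulating factor 7 after a rice protein, at -0.968 and -0.97. The libraries of 1 group share medium and time, so these values describe a shared group pattern, and the median over the ranked genes was 0.01.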

How the data were processed

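Poly(A) RNA of apple shoot explants was sequenced in 18 libraries. The submitters' processing notes name CASAVA, HISAT2 2.0.5 and featureCounts 1.5.0-p3. Build and strandedness are not stated in those notes or the labels. The authors deposited raw counts and FPKM per gene. The deposited FPKM equals the count divided by length and 1 constant per library, which was 0.857 to 1.28 times the count total. Counts were filtered with edgeR 4.0.16 filterByExpr (minimum count 10, minimum total 15; 26053 of 42841 genes kept), scaled by TMM and fitted once with 6 groups (R 4.3.3). Other genes were tested with the quasi-likelihood test and Benjamini-Hochberg adjustment over 26053 genes at 0.05. CPM uses TMM-scaled totals, and 1 count was worth 0.042 to 0.086 CPM. Intervals are exact binomial at 95%. Alternatives were DESeq2 1.42.0, RLE factors, no filter, libraries of 1 time, each library left out, a replicate block, and libraries with names ending in b summed with their namesakes. The fit was tested on simulated counts. The members and lists were chosen with earlier results of these data known. Named genes were the highest 6 of the family by mean CPM, up to 2 called per direction and comparison with the smallest p, the genes of the same name, the top 2 of each list, and the 5 most and 2 least alike. None of the identifiers matched the reference gene table (0 matches), so protein names come from the deposited table.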

Additional observations from a re-analysis of the deposited data

Results flagged for a closer look

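DVH24_035288 differed between media in its change with time. The log2 ratio of its 4 week to its 48 hour mean was 9.05 on control medium and -3.95 on BAR, with every library of the later group above, or below, every library of the earlier one. The BAR value rests in part on BAR 48 hour replicate 2, at 135 CPM, and the fitted difference was -1.36 without it. DVH24_000808, the family gene closest to the pair in pattern, had a ratio of 5.5 on control medium and 6.44 on TDZ, against -3.33 on BAR. The difference between media was not tested in these cases. The TDZ value of DVH24_000808 rests in part on 4 week replicate 3, and the fitted difference was 1.12 without it.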

How the results depend on the processing

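Leaving out BAR 48 hour replicate 2 turned the pair's BAR minus control difference at 48 hours. Leaving out TDZ 4 week replicate 3 turned the family median on TDZ over time (-0.25 to 0.03), the PR-1 and lipid-transfer medians of TDZ against control at 4 weeks (1.24 to -0.37 and 1.02 to -0.12) and DVH24_013179 on TDZ over time (7.07 to -0.53). Calls among the 27 other family genes moved in a fit of 4 week libraries alone to 1 for TDZ against control, 2 for BAR against control and 0 for TDZ against BAR; without TDZ 4 week replicate 3 as well, an alternative added after seeing the data, TDZ against BAR gave 8. For TDZ against BAR at 4 weeks DESeq2 gave 5 and summing the libraries whose names end in b gave 7. In the added fit the log2 differences of DVH24_035284 and DVH24_035288 were -11.09 and -10.83 for TDZ minus control and 0.2 and 0.6 for TDZ minus BAR. With a pseudocount of 0.1, 2 and 3 of the 5 most alike genes were kept.

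With each library left out in turn, family calls ranged from 6 to 11 (TDZ against control, 4 weeks), 4 to 14 (BAR against control), 0 to 10 (TDZ against BAR), 9 to 14 (control over time), 3 to 6 (TDZ over time) and 6 to 13 (BAR over time). For these and the other alternative edgeR fits the share of all genes passing is not given here. For DVH24_035284 the log2 differences ranged from -3.22 to -2.09, -1.19 to 2.89 and -5.52 to -1.49 at 48 hours (TDZ minus control, BAR minus control, TDZ minus BAR), from -11.06 to -0.72, -11.77 to -10.74 and 0.16 to 10.5 at 4 weeks, and from 8.89 to 9.93, 1.03 to 11.36 and -4.66 to -0.63 over time on control, TDZ and BAR. For DVH24_035288, in the same order, they ranged from -5.39 to -2.22, -0.95 to 2.14, -7.02 to -1.84, -10.8 to -0.28, -11.78 to -10.96, 0.56 to 11.09, 8.52 to 9.49, 1.03 to 13.58 and -4.45 to -1.36.

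Whether the replicate numbers pair the libraries was not settled, since pairs of unlike numbers were not compared. Over 45 same-number pairs the correlations of deviations ran from -0.221 to 0.297, with a median of -0.025, and 6 were over 0.1. With the replicate number as a block, family calls at 4 weeks were 9, 9 and 2, and the log2 difference of BAR minus control at 4 weeks was -11.21 and -11.35. At 1 count worth 0.042 to 0.086 CPM, levels under about 0.1 CPM are not resolved.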
